A study of Mus musculus with 6 samples.

Results

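Messenger RNA of 10 genes that set how much mitochondrion a cell makes and how its mitochondria fuse and divide was measured in the epididymal fat pad of mice, a visceral depot of white fat. The genes were taken by name from a deposited table of 35275 genes, and all 10 were found: Ppargc1b, Esrra, Nrf1, Tfam, Polg, Mfn1, Mfn2, Opa1, Dnm1l and Fis1. The tissue came from male C57BL/6 mice aged 4.5 months that had eaten a diet with 60% fat for 10 weeks from the age of 2 months. The 3 control samples were labelled Tfrcfl/fl, with loxP sites in both copies of Tfrc, the transferrin receptor gene. The 3 knockout samples were labelled TfrcAKO, a name used for deletion of the gene in adipocytes. The labels neither spell out the abbreviation nor name the Cre line, and no sample on another diet was analysed here. The question was whether these regulators differ in fat whose adipocytes lack the receptor that takes up transferrin-bound iron.

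Mitochondrial biogenesis is driven in the nucleus by coactivators of the PGC-1 family, which act through nuclear receptors such as ERRα and through the nuclear respiratory factors. These switch on genes of the respiratory chain and of the machinery that packages, copies and transcribes mitochondrial DNA. The shape of the network depends on large GTPases: mitofusins join the outer membranes, OPA1 joins the inner membranes and shapes the cristae, and DRP1 constricts and divides the organelle. In white adipocytes mitochondria supply intermediates and energy for the storage and release of fat.

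Of the 10 genes only Mfn2 passed the test between the genotypes. It rose 1.91-fold in the knockout, from 28.7 ± 2.22 to 54.9 ± 11.9 FPKM (SD, n = 3 each). None of the 10 fell. The other 9 had log2 fold changes between −0.18 and 0.24, all inside the range that holds the middle of all tested genes, −0.32 to 0.30. Across the whole table, limma called 43.5% of the 14383 tested genes at an adjusted p under 0.05, against this 1 of 10. With control replicate 2 left out the share of all genes was 23.6%, and with control replicate 3 left out it was 24.2%; 1 of the 10 was called in each of these fits. Whether this share differs from the background was not tested. FPKM scales the fragments of a gene to its length in kilobases and to a library of 1000000 reads, so levels of different genes can be set side by side on this scale. All fold changes are knockout minus control on the scale of log2(FPKM + 0.5), and intervals are unadjusted 95% limma intervals.

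The depth was 25252839 to 30650624 gene-assigned reads per sample. The 10 genes were covered by 169 reads (Ppargc1b) to 7515 reads (Mfn2) in a sample. All 10 passed the filter of at least 0.5 FPKM in 3 or more samples, and each was above 1 FPKM in every sample. Tfrc itself was at 12.1 ± 1.08 FPKM in control and 8.29 ± 1.20 FPKM in knockout tissue (SD, n = 3 each). It fell by 0.52 on the log2 scale (limma adjusted p = 0.0147), and was not called without control replicate 2 (0.0595) or control replicate 3 (0.0525). This whole-tissue value includes cells other than adipocytes. The median log2 fold change over all tested genes was −0.03.

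The mRNA of adipocyte and macrophage markers differed between the genotypes. Of all tested genes, 21.9% were called higher and 21.6% lower. Of 21 mature adipocyte markers 20 rose and none fell, and their summed level was 9612 to 13386 FPKM in control and 22847 to 31553 FPKM in knockout samples. That these sums separate was given beforehand, because each of the 21 genes has all knockout samples above all control samples. This was the case for 29.1% of all tested genes. Fabp4 alone had means of 5774 FPKM in control and 13620 FPKM in knockout samples. Of 21 macrophage markers 17 were called lower and none higher. Their summed levels were 6876 to 8502 FPKM in control and 1362 to 3464 FPKM in knockout samples. The 4 not called, named after their values were seen, were Fcgr1 (log2 fold change −0.80), Cd163 (0.02), Timd4 (0.34) and Lyve1 (0.45). In each of the 2 lists, 20 of the 21 markers were at 1 FPKM or more in every sample, and no marker was under 1 FPKM in all samples. The number of macrophage markers that fell was 9 without control replicate 2, where 9.07% of all tested genes were called lower. Without knockout replicate 3 it was 18, and 1 macrophage marker was called higher. In that fit 20.5% of all tested genes were called lower and 20.9% higher. Knockout replicate 3 was at the outer end of both sums and also had the highest Mfn2 level. In a whole-tissue sample, fewer cells of a type and less RNA per cell cannot be told apart, and the part of these markers in the Mfn2 result and in the gene lists that follow was not tested.

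**Figure D1:**
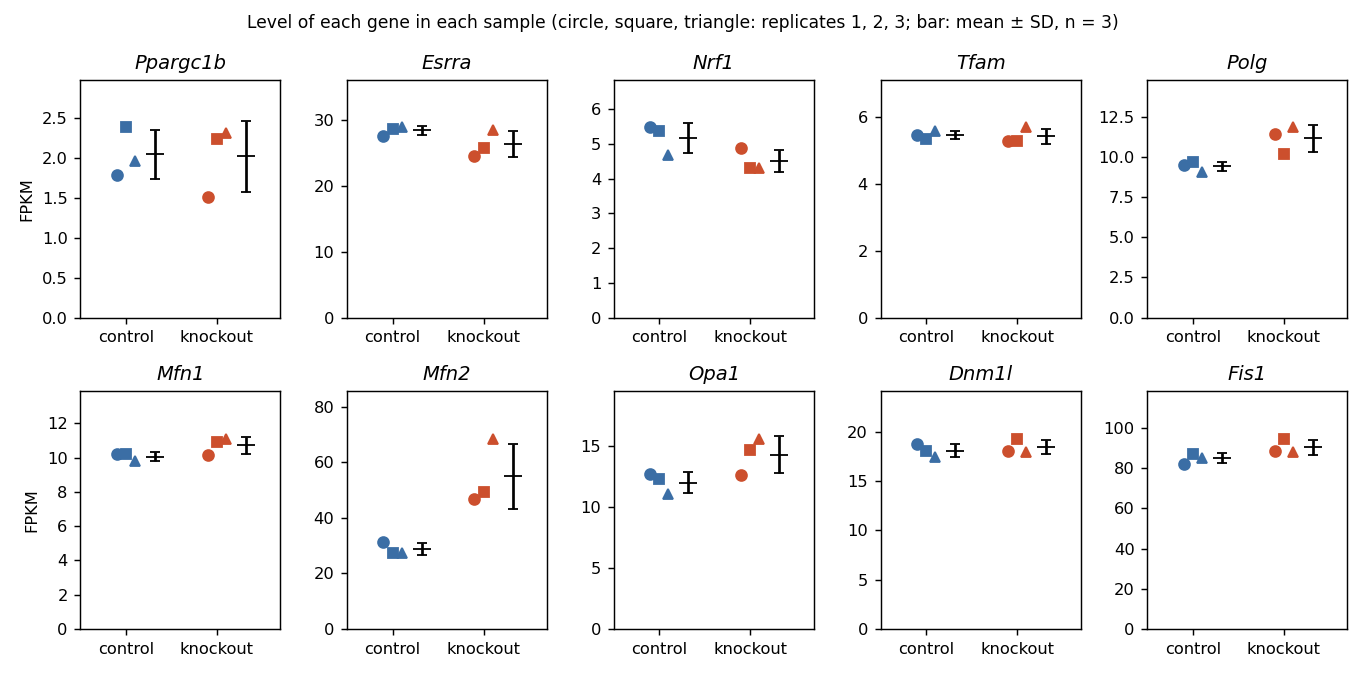
Level of the 10 genes in FPKM (vertical axes, each from 0) in the 3 control and 3 knockout samples. Points are samples and the bar beside them is the mean ± SD. Mfn2 lies between 27.4 and 31.2 FPKM in control and between 46.9 and 68.6 FPKM in knockout tissue, while most other genes overlap between the groups.

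In control tissue Fis1 had the highest level of the 10 genes, at 85.0 ± 2.51 FPKM. Mfn2 and Esrra followed at 28.7 ± 2.22 and 28.4 ± 0.676 FPKM, with ranges that overlapped, so that their order cannot be given. Next in order came Dnm1l, Opa1, Mfn1 and Polg, at 18.1, 12.0, 10.1 and 9.41 FPKM, each with a range apart from that of its neighbour. Tfam and Nrf1, at 5.46 ± 0.108 and 5.17 ± 0.435 FPKM, overlapped each other, and Ppargc1b was lowest at 2.04 ± 0.306 FPKM (SD, n = 3 for all). Transcripts of the 5 fusion and fission genes were more abundant per length than those of the nuclear coactivator and of the 2 mitochondrial DNA factors, in control tissue. The summed level of all 10 was 201 to 207 FPKM in control and 224 to 254 FPKM in knockout samples.

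Ppargc1b encodes PGC-1β, the coactivator of the family that is abundant in white fat. Its gene (ENSMUSG00000033871) lies on mm10 chromosome 18, 61298136 to 61400431, minus strand. In replicate order, here and for all genes that follow, the control samples had 1.79, 2.38 and 1.96 FPKM and the knockout samples 1.51, 2.24 and 2.32 FPKM. The groups overlapped over most of their range, and the lowest value of all was that of knockout replicate 1. On the log2 scale the groups differed by −0.02 ± 0.17 (SE), with an interval from −0.43 to 0.38 and a limma adjusted p of 0.923. That interval is the widest of the 10 genes and runs from −25.6% to 30.2%. It gives the differences that these samples do not exclude, and is no limit of detection. Ppargc1a, the better known paralog, is no member of the 10 and did not pass the filter. Its control values were 0.366, 0.243 and 0.184 FPKM, and the knockout samples, all higher, had 0.469, 0.680 and 0.447 FPKM.

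Esrra encodes ERRα, the orphan nuclear receptor through which PGC-1 coactivators reach many genes of energy metabolism. The control samples had 27.7, 28.7 and 28.9 FPKM and the knockout samples 24.6, 25.8 and 28.5 FPKM (ENSMUSG00000024955, chromosome 19, 6910977 to 6921813, minus strand). Knockout replicate 3 was inside the control range, and the other two knockout samples were below it. Esrra differed by −0.11 ± 0.08 (SE) on the log2 scale, with an interval from −0.29 to 0.07 and a limma adjusted p of 0.263. The gene overlaps Trmt112 on the opposite strand by 73 bases, and reads there cannot be told apart, since the strand setting is not given in the sources used here.

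Nrf1, nuclear respiratory factor 1, activates promoters of respiratory chain subunits and of mitochondrial import and transcription factors. Its control values were 5.48, 5.37 and 4.67 FPKM and its knockout values 4.88, 4.32 and 4.31 FPKM (ENSMUSG00000058440, chromosome 6, 30047988 to 30153458, plus strand). Knockout replicate 1 lay inside the control range and the other two below it. Nrf1 differed by −0.18 ± 0.10 (SE) on the log2 scale, the most negative of the 10 genes, with an interval from −0.41 to 0.05 and a limma adjusted p of 0.171.

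Tfam packages mitochondrial DNA into nucleoids and starts its transcription. Of the 10 genes it had the log2 fold change nearest to 0. The control samples had 5.47, 5.35 and 5.57 FPKM and the knockout samples 5.28, 5.28 and 5.69 FPKM (ENSMUSG00000003923, chromosome 10, 71225464 to 71238280, minus strand). The knockout samples spanned the whole control range. Its difference was −0.01 ± 0.07 (SE) on the log2 scale with a limma adjusted p of 0.911, and the interval from −0.19 to 0.17 runs from −12.3% to 12.2%. The sign of this value changed with the scaling: it was 0.0015 with median-of-ratios scaling and 0.012 with limma-voom on recovered reads.

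Polg encodes the catalytic subunit of the polymerase that copies mitochondrial DNA. Its control values were 9.48, 9.67 and 9.08 FPKM and its knockout values 11.4, 10.2 and 11.8 FPKM (ENSMUSG00000039176, chromosome 7, 79448791 to 79466362, minus strand). Every knockout sample was above every control sample, which was the case for 3 of the 10 genes (Mfn2, Polg and Fis1). Of all tested genes, 29.1% had groups that do not overlap with the knockout higher, and 60.1% in either direction. The log2 fold change of Polg was 0.23 ± 0.08 (SE), with an interval from 0.04 to 0.42, and the limma adjusted p of 0.0535 missed the threshold. It was called in 2 of the 14 alternative fits: with limma-voom on recovered reads (adjusted p = 0.0403) and without knockout replicate 2 (adjusted p = 0.0326). Fanci, which overlaps it by 1475 bases on the opposite strand, was at 0.790 to 0.889 FPKM in control and 0.163 to 0.523 FPKM in knockout samples.

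Mfn2 and Mfn1 encode the mitofusins, paralogous GTPases of the outer membrane that tether and fuse neighbouring mitochondria. MFN2 also sits at contacts with the endoplasmic reticulum and, in fat, with lipid droplets. Mfn2 (ENSMUSG00000029020, chromosome 4, 147873599 to 147904704, minus strand) had 31.2, 27.4 and 27.4 FPKM in the control samples, against 46.9, 49.3 and 68.6 FPKM in the knockout samples. The groups did not overlap, and knockout replicate 3 stood above the other two. Mfn2 rose by 0.91 ± 0.15 (SE) on the log2 scale, with an interval from 0.55 to 1.27 and a limma adjusted p of 0.00624. The rise was 0.74 without knockout replicate 3 (limma adjusted p = 0.000765). The call held in all 14 alternative fits, with log2 fold changes from 0.71 to 1.01 and adjusted p up to 0.0332. Gm13156 overlaps Mfn2 by 321 bases on the opposite strand and was at 0.320 to 0.528 FPKM.

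Mfn1 (ENSMUSG00000027668, chromosome 3, 32529465 to 32579239, plus strand) had control values of 10.2, 10.2 and 9.78 FPKM and knockout values of 10.2, 10.9 and 11.1 FPKM. Knockout replicate 1 was within the control range and the other two above it. Mfn1 differed by 0.09 ± 0.07 (SE) on the log2 scale, with an interval from −0.07 to 0.25 and a limma adjusted p of 0.330. The upper end of this interval lies below the lower end of that of Mfn2. The ratio of Mfn2 to Mfn1 within a sample, which does not depend on the scaling of the library, was 3.07, 2.68 and 2.80 in control and 4.61, 4.51 and 6.17 in knockout replicates. The difference was 0.83 on the log2 scale, and the two-sided exact permutation test over samples gave p = 0.1, the smallest that 3 against 3 samples can give. Adjusted over the 2 ratios tested, it was also 0.1.

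The promoter windows of the paralogs are shown because Mfn2 was called and Mfn1 was not; whether the 2 changes differ was tested only through their ratio. They run from 250 bases before to 50 after the start site, 5′ to 3′ on the gene's strand, from RefSeq on GRCm38.p6, and capitals mark the one match to the motifs searched. The windows are chr3:32529232-32529531 on the plus strand for Mfn1 and chr4:147904649-147904948 on the minus strand for Mfn2, one of 3 start sites listed for that gene.
Mfn1: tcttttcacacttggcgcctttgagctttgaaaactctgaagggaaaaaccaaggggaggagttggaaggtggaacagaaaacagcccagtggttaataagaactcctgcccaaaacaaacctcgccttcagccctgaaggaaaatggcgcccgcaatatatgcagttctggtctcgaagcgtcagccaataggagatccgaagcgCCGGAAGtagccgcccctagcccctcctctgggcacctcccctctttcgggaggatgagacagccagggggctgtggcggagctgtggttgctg
Mfn2: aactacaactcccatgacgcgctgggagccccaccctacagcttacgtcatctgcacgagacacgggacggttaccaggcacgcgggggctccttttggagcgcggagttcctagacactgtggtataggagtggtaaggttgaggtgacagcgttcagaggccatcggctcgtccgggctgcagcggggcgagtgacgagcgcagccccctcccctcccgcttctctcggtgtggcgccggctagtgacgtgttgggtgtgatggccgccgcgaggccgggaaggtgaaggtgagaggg
Short motifs, 3 in all, were searched on both strands: GCGCANG, a core of the NRF1 site, AAGGTCA, the core bound by estrogen-related receptors, and CCGGAAG, a core of the ETS site bound by GABPA. The Mfn1 window held CCGGAAG 44 bases upstream of the start site, and the Mfn2 window held none of these letters, which says nothing of the factors themselves.

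The promoter of Ppargc1b was left out of the search. Of the 9 genes whose promoter was searched, 4 held the GABPA core (Tfam, Polg, Mfn1 and Fis1), a match found in 8.86% of the 32851 RefSeq windows of the same length. NRF1 cores were found in 2 (Esrra and Opa1), against 16.6% of all windows, and the estrogen-related receptor core in none, against 4.72%. These matches are printed with the bases around them, with capitals for the matched bases. Esrra and Opa1 hold the NRF1 core only, and Tfam, Polg and Fis1 the GABPA core only, so no motif is common to them all. The coordinates on GRCm38.p6 are chr19:6921822-6921851 (minus) for Esrra, chr16:29579265-29579297 (plus) for Opa1, chr10:71238075-71238101 (minus) for Tfam, chr7:79466295-79466321 (minus) for Polg and chr5:136953247-136953273 (plus) for Fis1.
Esrra: ccctgttttgCATGCGCAGGccggccccgc
Opa1: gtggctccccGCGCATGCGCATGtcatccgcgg
Tfam: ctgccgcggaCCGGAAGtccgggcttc
Polg: aggacctcacCCGGAAGtccctctgca
Fis1: gaggcaccacCCGGAAGttcaggcttc
In Opa1 and Esrra the capitals hold overlapping matches on both strands, and Esrra has a further match 141 bases upstream of its start site that is not shown. The RefSeq start sites of Tfam and Polg lie 236 and 89 bases from the starts of the deposited genes. The windows are rich in G and C, at 53% to 77%. Of the 4 genes with the GABPA core and the 2 with the NRF1 core, limma called none. Mfn2, the gene that was called, had no match in its window. Nrf1 and Dnm1l had no match either and were not called. Because Mfn2 was the only gene called, no link between motif and change can be read from these matches.

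**Figure D2:**
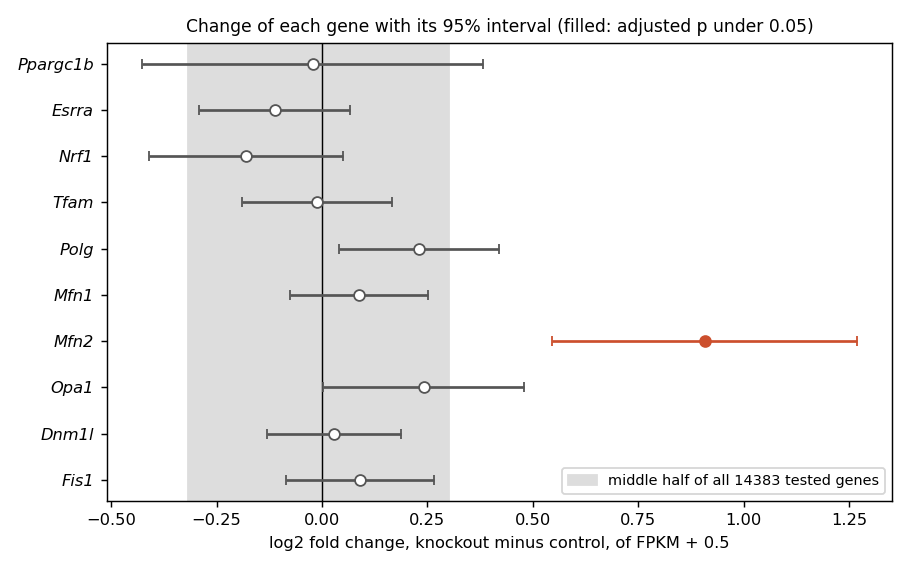
Log2 fold change of each of the 10 genes (horizontal axis, knockout minus control, of FPKM + 0.5) with its 95% limma interval. The grey band spans the middle of all tested genes, from −0.32 to 0.30. Only the Mfn2 interval, from 0.55 to 1.27, lies wholly outside the band.

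Opa1 encodes the dynamin-like GTPase that fuses inner membranes and keeps cristae tight (ENSMUSG00000038084, chromosome 16, 29579334 to 29654884, plus strand). Its control values were 12.7, 12.3 and 11.1 FPKM and its knockout values 12.6, 14.7 and 15.6 FPKM. Knockout replicate 1 was inside the control range and the other two above it. Opa1 differed by 0.24 ± 0.10 (SE) on the log2 scale, with an interval from 0.0032 to 0.48 and a limma adjusted p of 0.0909. Without knockout replicate 1 the log2 fold change was 0.33 and the adjusted p 0.0334.

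Dnm1l encodes DRP1, the cytosolic dynamin that is recruited to the outer membrane and constricts it. The control samples had 18.8, 18.0 and 17.4 FPKM and the knockout samples 18.1, 19.3 and 18.0 FPKM (ENSMUSG00000022789, chromosome 16, 16312235 to 16359030, minus strand). The samples of both groups were mixed in their order. Dnm1l differed by 0.03 ± 0.07 (SE) on the log2 scale, with an interval from −0.13 to 0.19 and a limma adjusted p of 0.744. Fis1, a small tail-anchored protein of the outer membrane, had 82.3, 87.3 and 85.3 FPKM in the control samples against 88.6, 94.8 and 88.2 FPKM in the knockout samples (ENSMUSG00000019054, chromosome 5, 136953275 to 136966234, plus strand). All knockout samples were above the control samples, by a small margin. Fis1 differed by 0.09 ± 0.07 (SE) on the log2 scale, with an interval from −0.08 to 0.27 and a limma adjusted p of 0.351.

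The ratio of Opa1 to Dnm1l, an inner membrane fusion GTPase against the fission GTPase, was 0.675, 0.682 and 0.635 in control replicates and 0.697, 0.763 and 0.868 in knockout replicates. The groups did not overlap. The difference was 0.22 on the log2 scale, with p = 0.1 in the two-sided exact permutation test, again the smallest possible, and 0.1 after adjustment over the 2 ratios.

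Genes of the same pathways outside the 10 were described from lists. Among 20 further biogenesis factors (coactivators, nuclear receptors, their upstream kinases and deacetylases, and corepressors), 17 passed the filter, 2 rose and 4 fell. Over all tested genes, 21.9% were called higher and 21.6% lower. These shares were 14.5% and 9.07% without control replicate 2, and 13.5% and 10.7% without control replicate 3. Perm1, a muscle-enriched factor induced by PGC-1 and ERR, fell by 1.44 ± 0.26 (SE) on the log2 scale, from 4.14 ± 0.764 to 1.26 ± 0.557 FPKM (limma adjusted p = 0.00735). Tfeb, the lysosomal and autophagy regulator that also acts on Ppargc1a, fell by 0.98 ± 0.17, and Nfe2l2, which encodes the antioxidant factor NRF2, by 0.48 ± 0.10 (limma adjusted p = 0.00688 and 0.0103). Pprc1, the third PGC-1 family coactivator, fell by 0.25 ± 0.07 (limma adjusted p = 0.0356). That call was lost in each fit that left out 1 library, with adjusted p from 0.0549 to 0.117. The 2 that rose, named after their values were seen, were Sirt3, a mitochondrial deacetylase (log2 fold change 0.42), and Nrip1, the corepressor RIP140 (0.78), whose groups overlapped. Neither was called without control replicate 2, control replicate 3, knockout replicate 2 or knockout replicate 3, and Sirt3 was also not called without control replicate 1, with log2 fold changes of 0.32 to 0.50 for Sirt3 and 0.63 to 0.76 for Nrip1 in those fits.

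Among 25 genes that maintain or express mitochondrial DNA, 8 (32%) rose and 1 fell, with a median log2 fold change of 0.14, beside 21.9% higher and 21.6% lower over all tested genes. Lonp1, the matrix protease that degrades unbound TFAM, rose from 35.4 ± 1.59 to 57.4 ± 7.08 FPKM (SD, n = 3 each), or by 0.68 ± 0.10 on the log2 scale (limma adjusted p = 0.00466). Clpx, the unfoldase of the matrix protease ClpXP, rose by 0.54 ± 0.09, and Mterf2, of the mitochondrial termination factor family, by 0.84 ± 0.14 (limma adjusted p = 0.00660 and 0.00624). Tfb2m, which melts the promoter beside TFAM, rose by 0.35 ± 0.08 (limma adjusted p = 0.0156). It was not called without control replicate 1 or 3 (adjusted p = 0.0539 and 0.0633). Polrmt, the mitochondrial RNA polymerase, was at 5.86 ± 0.300 and 6.18 ± 0.364 FPKM and was not called (limma adjusted p = 0.520). The other 4 that rose, Top1mt (0.52), Tefm (0.34), Dguok (0.24) and Rrm2b (0.34), and Rnaseh1 (−0.23), the one that fell, are named after their values were seen, each with its log2 fold change. The number higher was 3 without control replicate 1 or 3 and 5 without knockout replicate 2, and the number lower was 0 whichever single library was left out.

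The 13 mRNAs encoded in mitochondrial DNA, which TFAM, TFB2M and POLRMT transcribe, had a median log2 fold change of 0.62, and 6 of them rose and none fell, beside the same 21.9% and 21.6%. mt-Nd2, a complex I subunit, had 1722, 1489 and 1480 FPKM in the control samples against 2316, 2480 and 3207 FPKM in the knockout samples. It rose by 0.76 ± 0.17 on the log2 scale (limma adjusted p = 0.0135), and was not called without control replicate 2 (0.0602) or 3 (0.0623). The 13 genes took 1.88%, 1.76% and 1.73% of the gene-assigned reads in the control samples and 2.44%, 2.61% and 4.09% in the knockout samples, of which replicate 3 was the highest. The number of the 13 that was called was 0 without control replicate 2 or 3, 2 without control replicate 1 and 12 without knockout replicate 1. Without knockout replicate 3 it was 9, with a median log2 fold change of 0.39. Mean control levels ran from 0.522 FPKM (mt-Atp8) to 4786 FPKM (mt-Co1). The mouse nuclear genome holds near-identical copies of part of mitochondrial DNA, so levels of genes in the copied stretch are uncertain where reads fit both places.

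Among 21 genes of fusion, inner membrane shape and OPA1 processing, 20 passed the filter, 9 (45%) rose and 1 fell, with a median log2 fold change of 0.24. Over all tested genes the shares were 21.9% higher and 21.6% lower. Chchd6, a subunit of the MICOS complex that holds cristae junctions together, rose from 15.2 ± 1.27 to 32.4 ± 5.09 FPKM (SD, n = 3 each), or by 1.06 ± 0.12 on the log2 scale (limma adjusted p = 0.00370). Apoo and Apool, which encode its MIC26 and MIC27 subunits, rose by 0.72 ± 0.10 and 0.56 ± 0.09 (limma adjusted p = 0.00462 and 0.00531). Phb, which encodes prohibitin of the inner membrane scaffold that guards OPA1, rose by 0.43 ± 0.08 (limma adjusted p = 0.00671). Oma1, the stress protease that cleaves OPA1, fell by 0.42 ± 0.09, from 9.13 ± 0.487 to 6.72 ± 0.615 FPKM (limma adjusted p = 0.0121). It was not called without control replicate 2 (0.0515) or 3 (0.0522). Yme1l1, the other OPA1-cleaving protease, had a log2 fold change of 0.06 ± 0.06 and was not called (limma adjusted p = 0.474).

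Of the 9 genes of this list that rose, 7 encode the MICOS subunits in it, a grouping made after their values were seen and given with no test. They were Chchd6, Apoo, Apool, Immt (0.72), Chchd3 (0.50), Micos10 (0.31) and Micos13 (0.31), with log2 fold changes in brackets for those not given above. Their summed level was 214, 197 and 192 FPKM in control replicates 1, 2 and 3 and 279, 282 and 318 FPKM in the knockout replicates. That all knockout sums are above all control sums was given beforehand, because each of the 7 genes separates in this way. Of all tested genes, 29.1% had groups that do not overlap with the knockout higher. Micos10 and Micos13 were not called without control replicate 2 (adjusted p = 0.0523 and 0.0610) or control replicate 3 (0.0582 and 0.0709). The remaining gene that rose besides Phb was Miga2, a mitoguardin that binds mitofusins and links mitochondria to lipid droplets, with a log2 fold change of 0.83, close to that of Mfn2; it too was singled out after its value was seen.

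Among 21 genes of fission, its adaptors and mitochondrial transport, 20 passed the filter, 3 (15%) rose and 3 fell, with a median log2 fold change of −0.03. Both shares are below those of all tested genes, 21.9% higher and 21.6% lower, so the counts are no result about the list. Marchf5, a ubiquitin ligase of the outer membrane that acts on DRP1 and mitofusins, rose from 49.8 ± 5.51 to 77.7 ± 11.1 FPKM (SD, n = 3 each), or by 0.63 ± 0.13 on the log2 scale (limma adjusted p = 0.0103). Mtfr1l rose by 0.29 ± 0.07 and the trafficking adaptor Trak1, named after its value was seen, by 0.30 ± 0.09. Mtfr2, a fission regulator linked to proliferating cells, fell by 1.15 ± 0.15, from 1.89 ± 0.352 to 0.569 ± 0.0809 FPKM (limma adjusted p = 0.00399). Spire1, which assembles actin at division sites, fell by 0.27 ± 0.07, and Armcx3, also named after its value was seen, by 0.42 ± 0.11. Mff, the main DRP1 receptor, had a log2 fold change of −0.20 ± 0.07 and groups that did not overlap. Its limma adjusted p was 0.0511, and it was called with a filter at 1 FPKM (0.0478). The counts without 1 library were 1 to 5 higher and 1 to 3 lower: 1 higher without control replicate 3, 5 higher without knockout replicate 1, and 1 lower without control replicate 1, 2 or 3. Mtfr1l was not called without control replicate 3 (adjusted p = 0.0605), and Spire1, Trak1 and Armcx3 were each not called when any one of the 3 control replicates was left out. Spire1 was also lost without knockout replicate 1 and Trak1 without knockout replicate 2.

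**Figure D3:**
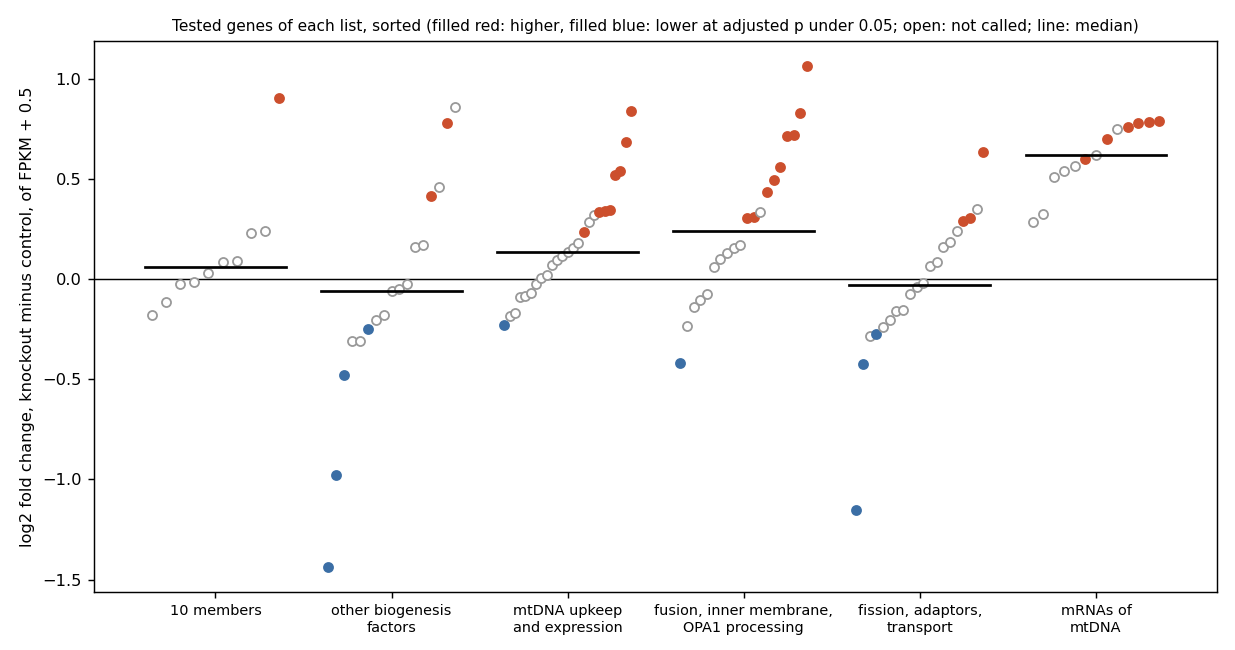
Log2 fold change (vertical axis, knockout minus control, of FPKM + 0.5) of the tested genes of each list, sorted within the list. Filled points passed an adjusted p under 0.05 in limma (red higher, blue lower), open points did not, and the line is the median. Of the 10 genes described here, Mfn2 at 0.91 is the one filled point, while 9 of 20 genes in the fusion and inner membrane list are filled red.

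Other tissues rich in mitochondria were looked at through their markers. Of 9 skeletal muscle markers 4 passed the filter, 1 was called higher and none lower, and their median log2 fold change was −0.01. Acta1 rose by 1.21 on the log2 scale, and Mylpf (0.17), Tnnt3 (−0.20) and Tnni2 (−0.26) were not called. Ckm and Myh4 were at or near 0 in all samples. Of 12 brown and beige adipocyte markers 8 passed, with 6 higher and 2 lower. There were 4 higher without control replicate 3. When any 1 control replicate was left out, 7 markers passed the filter and 0 were called lower. Elovl3 did not pass the filter in those fits and was not tested. Over all tested genes 21.9% were called higher and 21.6% lower, and 13.5% higher without control replicate 3. The share lower was 14.8%, 9.07% and 10.7% without control replicate 1, 2 and 3. Cox8b and Cox7a1 rose by 1.74 and 1.44. The 2 lower in the main fit were Elovl3 (−1.10) and Dio2 (−0.48), with means of 0.991 and 0.699 FPKM in control and 0.210 and 0.366 FPKM in knockout samples. Both are near the filter, and Elovl3 passed it only through its control samples. With a filter at 1 FPKM 5 markers passed, of which 5 were higher and 0 lower, beside 23.1% and 23.5% of all tested genes. Ucp1 was at 0.0467 to 0.167 FPKM. None of 8 epididymis and testis markers passed the filter. The markers in these sentences other than Acta1, Cox8b and Cox7a1 were picked after their values were seen. Their part in the results above was not tested.

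**Figure D4:**
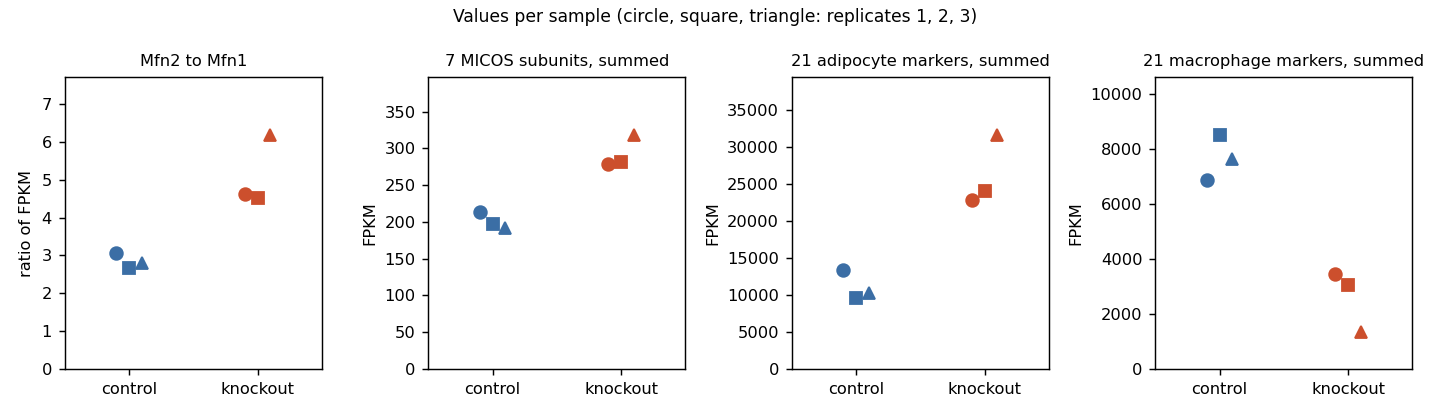
Ratio of Mfn2 to Mfn1 and summed FPKM of the 7 MICOS subunits, of 21 mature adipocyte markers and of 21 macrophage markers (vertical axes from 0) in each sample. Each panel separates the 3 control from the 3 knockout samples, and knockout replicate 3 is the outermost knockout sample in all 4 panels, with a Mfn2 to Mfn1 ratio of 6.17. For the MICOS and adipocyte sums the separation was given beforehand, because each of their 7 and 21 genes separates.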

How the data were processed

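Libraries of total RNA from 6 samples were made with the NEBNext Ultra kit after Trizol extraction, as the labels' protocols state. CASAVA, FastQC, STAR 2.5, HTSeq 0.6.1 and the build mm10 are named in the submitters' processing notes; no annotation release, strand setting or filter is given in the sources used here. FPKM per gene and sample and the gene length in bases are as the authors deposited them, per the file headers. Reads were recovered from FPKM and length (every value above 0 was whole within 0.01 of a read), which gave the depth.

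Genes with at least 0.5 FPKM in 3 samples were tested on log2(FPKM + 0.5) with limma 3.58.1 (R 4.3.3, statmod 1.5.0), trend and robust moderation, two-sided, with Benjamini-Hochberg adjustment over 14383 genes. Standard errors and adjusted p-values beside fold changes are from this fit. No label says that the samples came from separate animals, in which case p-values cover only the spread among these 6, which may be technical. The 10 genes and all lists were chosen with earlier results of these data known. Of 181 list entries all 181 were found, 10 through another symbol. The rule for genes to name takes the 10; in each list the called genes of lowest p, at most 4, and where none was called the 2 of highest mean; Tfrc, Ppargc1a, Polrmt, Tfb2m, Mff, Oma1 and Yme1l1. Of the genes it gives, those of the marker lists and of mitochondrial DNA are mostly given as counts and sums; genes outside it are marked in the text. A part of that rule that names the gene most correlated with each of the 10 was not used, because the samples form 2 separate groups. The alternatives were pseudocounts of 0.1 and 1, a filter at 1 FPKM, no filter, a replicate block, each library left out, median-of-ratios scaling and limma-voom on recovered reads with a TMM scaling; one more, leaving out both knockout replicate 3 and control replicate 2, was chosen after seeing the data. The count-based fit was limma-voom; other count models, planned only for a file that holds counts, were not run. The fit was tried on simulated counts in which 200 genes were changed by known folds. That is no measure of its error rate in these data, where 43.5% of the tested genes were called. Motifs were searched by script, with Python 3.11.15.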

Additional observations from a re-analysis of the deposited data

How the results depend on the processing

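Mfn2 was called higher in all 14 alternative fits, and no alternative called any of the 10 genes lower. Polg was called with limma-voom (log2 fold change 0.27), which made 2 of the 10 called higher. Tfam had a sign opposite to the main value with median-of-ratios scaling (0.0015) and with limma-voom (0.012). Leaving out 1 library gave log2 fold changes of −0.11 to 0.13 for Ppargc1b, −0.17 to −0.07 for Esrra, −0.24 to −0.14 for Nrf1, −0.044 to 0.0053 for Tfam (−0.058 without both knockout replicate 3 and control replicate 2), 0.19 to 0.29 for Polg, 0.06 to 0.12 for Mfn1, 0.74 to 1.01 for Mfn2, 0.18 to 0.33 for Opa1, −0.0023 to 0.057 for Dnm1l and 0.06 to 0.11 for Fis1. The signs of Ppargc1b (0.07 without control replicate 2, 0.13 without knockout replicate 1), Tfam (0.0013, 0.0049 and 0.0053 without control replicate 3, knockout replicate 1 and knockout replicate 2) and Dnm1l (−0.0023 without knockout replicate 2) turned in single fits. The number of the 10 called higher was 1 to 2. The log2 ratio of Mfn2 to Mfn1 was 0.68 to 0.91 and that of Opa1 to Dnm1l 0.14 to 0.29.

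Over all genes 3336 to 5861 were called with 1 library left out, the lowest without control replicate 2 and 3421 without control replicate 3, against 6253; the lowest had 2053 higher and 1283 lower, against 3147 and 3106. In the same fits the numbers higher were 0 to 4 of the other biogenesis factors, 3 to 7 of the mitochondrial DNA genes, 7 to 10 of the fusion list, 1 to 5 of the fission list and 0 to 12 of the mitochondrial mRNAs, and the numbers lower were 3 to 5, 0, 0 to 1, 1 to 3 and 0. Over all tested genes the shares in these fits were 13.5% to 20.9% higher and 9.07% to 21.8% lower. With no filter, 0 of the other biogenesis factors and 5 of the mitochondrial DNA genes were higher and 0 of the latter lower, beside 11.2% higher and 10% lower of all 25206 genes then tested. With limma-voom 0 of the mitochondrial DNA genes were lower, beside 22.1% of all tested genes. Leaving out both knockout replicate 3 and control replicate 2 gave 0 higher among the other biogenesis factors, 0 lower among the mitochondrial DNA genes and 10 of the 12 tested mitochondrial mRNAs higher. Of all genes tested in that fit 17.9% were higher and 15.3% lower. The cause was not tested. By construction the fits that leave out libraries have fewer samples and the fit with no filter tests more genes.

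The replicate numbers of the titles gave no sign of pairing. Same-numbered samples had correlations of their deviations from the group means of −0.24, 0.03 and −0.18, and no sample correlated best with its own number. Deviations from a group mean sum to 0, so these correlations are tied to each other and cannot exclude that same-numbered samples were handled together. With the number as a replicate block 4581 genes were called, with 15.8% of all tested genes higher and 16.1% lower. Beside this, 0 were higher among the other biogenesis factors and 4 higher and 0 lower among the mitochondrial DNA genes. In the fission list 1 was higher, and 3 of the mitochondrial mRNAs were higher. Of the 10 genes Mfn2 was called (limma adjusted p = 0.0194). Ppargc1b had the fewest reads of the 10 genes, 169 to 227 per sample, and the part of depth in its spread was not tested.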
